A study of Mus musculus with 12 samples.

Results

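The annexins are a family of calcium-dependent phospholipid-binding proteins, and 9 of their genes were described across 12 RNAseq libraries of immortalized murine brown adipocytes. The 9 genes are Anxa1, Anxa2, Anxa3, Anxa4, Anxa5, Anxa6, Anxa7, Anxa8 and Anxa11, out of 48321 genes listed. The family was chosen by measured values of these libraries, because Anxa8 had no read in the cells expressing Sema4B while other annexins were abundant. Differences between the Sema4B line and its control line are therefore given as descriptions without a p-value. Tests of the annexins are given only for the response to norepinephrine (NE) within each line and for the difference between these responses, which the rule for choosing the family did not use. The lists of partner genes were drawn up with results of these libraries already in view, so their counts are no independent support.

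Annexins share a core of repeats that binds negatively charged lipids when calcium is present, and they differ mainly in the tail in front of that core. Through the core they gather at the inner face of membranes during vesicle traffic, exocytosis and the sealing of membrane tears. Some members also act outside the cell, where Anxa1 signals through formyl peptide receptors and Anxa5 covers exposed phosphatidylserine. In adipocytes, whose plasma membrane is rich in caveolae and whose cytoplasm is filled by lipid droplets, annexins are studied for vesicle traffic, for insulin-driven glucose uptake and for the control of inflammation.

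The cells were wild type brown preadipocytes immortalized with SV40 large T antigen and differentiated for 8 days, and they were stably transduced with lentivirus. By the authors' methods, differentiation in all groups began with isobutyl methylxanthine, rosiglitazone, the glucocorticoid dexamethasone, insulin and triiodothyronine. Later medium kept insulin and triiodothyronine. One line carried the empty pLEX vector (vector). The other carried a Flag-tagged truncated mouse Sema4B that mimics the ectodomain released by the protease ADAM17 (tSema4B). Each line was kept for 6 h in serum-free medium with albumin, either without a stimulus (unstimulated) or with 2 μM NE, which gave 4 groups of 3 libraries. One transduced line stood for each construct, all cells carried the large T antigen, and the 3 libraries of a group are called technical replicates in their labels. Hence p-values measure only the spread between these libraries, and a difference between vector and tSema4B cannot be told apart from a difference between these 2 lines that arose for another reason. In bulk libraries such as these, fewer cells of a type and less RNA per cell cannot be told apart.

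Reads counted on genes ranged from 2841941 to 3682634 in unstimulated vector cells, from 2000780 to 2541747 in unstimulated tSema4B cells, from 4739777 to 5409583 in vector cells after NE and from 2307190 to 3144946 in tSema4B cells after NE. Values below are read counts divided by the DESeq2 size factor of the library (normalized counts), and 1 read was worth between 0.593 and 1.55 of them. Sema4b, the transduced gene, lay between 65472 and 124008 in the 6 vector libraries and between 208760 and 316850 in the 6 tSema4B libraries, without separating the construct from the endogenous transcript. Ucp1, the uncoupling protein of brown fat, rose after NE from 12.1 to 276 in vector cells (limma, adjusted p = 3.79e-08) and from 0 to 62.9 in tSema4B cells (adjusted p = 8.46e-10), whereas Dio2, another brown fat gene, had no read in any library. Of the 5 brown adipocyte genes tested, out of 6 listed, Ucp1 alone passed in either line, and in vector cells the other 4 had log2 fold changes of -0.67 (Adrb3), -0.58 (Ppargc1a), -0.23 (Prdm16) and -0.01 (Cidea). Summed over 7 adipocyte genes, all of which were read, normalized counts lay between 26518 and 29036 in vector cells and 3504 and 5787 in tSema4B cells without a stimulus, between 38025 and 50123 in vector cells after NE, and 5811 and 6893 in tSema4B cells after NE. The sum over 8 fibroblast and preadipocyte genes, again all read, lay between 9859 and 10293, 17550 and 19882, 7863 and 8642, and 15158 and 16344 in the same order of groups. The adipocyte sum was mostly Fabp4, a fatty acid-binding protein, which rose after NE in vector cells from 24034 ± 974 to 40898 ± 5624 (adjusted p = 0.000506). In the same comparison Pparg and Plin1 fell by 0.71 and 0.97 on the log2 scale (adjusted p = 0.0146 and 0.0300), while Adipoq, Cidec and Cebpa had -0.01, -0.03 and 0.03 (adjusted p = 0.964, 0.963 and 0.956). In tSema4B cells NE raised Cidec by 1.16 (adjusted p = 0.00116) and Fabp4 by 0.47 (adjusted p = 0.0345), and no adipocyte gene passed as lower, with -0.44 for Pparg and -0.64 for Plin1 (adjusted p = 0.187 and 0.208). All 6 tested adipocyte genes had lower means in tSema4B than in vector cells in both conditions. The fibroblast sum was mostly Col1a1, a collagen gene, which fell by 0.30 and 0.27 on the log2 scale after NE in vector and tSema4B cells (adjusted p = 0.00597 and 0.0215), and in each line 4 of the 8 fibroblast genes fell and 1 rose. Those that fell were Col1a1, Pdgfrb, Dlk1 and Cd34 in both lines, by 0.27 to 0.56, and Ly6a rose by 0.87 and 1.07 (adjusted p = 0.00316 and 0.000657). Beside the calls of all marker lists here, 4.78% of all tested genes fell and 6.82% rose after NE in vector cells. In tSema4B cells these shares were 2.58% and 3.68%. Thy1, also in that list, overlapped between the lines in both conditions. The sum over 6 macrophage genes lay between 13.1 and 21.7 in vector and 17.8 and 29.4 in tSema4B cells without NE, and between 41.0 and 58.3, and 25.7 and 52.1, after it. Ptprc and Adgre1, which define these cells, had no read in any library, and Itgam had at most 1. Both tested genes of that list rose in vector cells, Csf1r from 1.37 ± 0.708 to 11.5 ± 2.50 (adjusted p = 0.0289) and Cd14 from 12.9 ± 3.77 to 32.3 ± 3.90 (adjusted p = 0.0464), and in tSema4B cells Csf1r rose from 1.31 ± 1.37 to 15.8 ± 5.42 (adjusted p = 0.0119) while Cd14 was 19.5 and 20.7 (adjusted p = 0.904). The part of these markers in the annexin values below was not tested.

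A gene was tested if 3 or more libraries held 10 or more normalized counts of it, which kept 11998. Each of the 9 members passed this filter, and Anxa8 passed it through the vector libraries alone. A gene passed the test at an adjusted p of 0.05 or less (limma on log2 of the normalized count plus 1, two-sided, Benjamini-Hochberg adjustment over all tested genes), and both thresholds also ask that the log2 fold change be 1 or more in size. Fold changes are on this log2 scale. Of the other annexin genes, Anxa10 and Anxa13 had no read in any library. Anxa9, an annexin whose core has lost calcium-binding residues, had between 1 and 18 reads per library and passed no NE test (adjusted p = 0.356 in vector cells and 0.633 in tSema4B cells).

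The family was led by Anxa5 and Anxa1, and Anxa11 and Anxa8 were its least abundant members. On GRCm38, normalized counts per kilobase of merged exons in unstimulated vector cells were 1536 ± 159 for Anxa5 (SD, n = 3), 1283 ± 30.0 for Anxa1, 520 ± 24.1 for Anxa2 and 262 ± 15.5 for Anxa6. They were 82.0 ± 4.62 for Anxa4, 79.6 ± 21.4 for Anxa3, 50.5 ± 7.55 for Anxa7, 28.3 ± 9.07 for Anxa8 and 13.7 ± 1.76 for Anxa11. In this group the ranges of neighbouring members were separate except for those of Anxa4 and Anxa3. In unstimulated tSema4B cells Anxa3, at 131 ± 10.7, stood above Anxa4, at 60.0 ± 5.60, and no neighbouring ranges overlapped. After NE the ranges of Anxa5 and Anxa1 overlapped in both lines, as did those of Anxa4 and Anxa7, and in vector cells also those of Anxa8 and Anxa11. The order depends on the length used, since with the longest transcript of each gene Anxa1, at 2231 per kilobase in unstimulated vector cells, stood above Anxa5, at 1577.

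**Figure D1:**
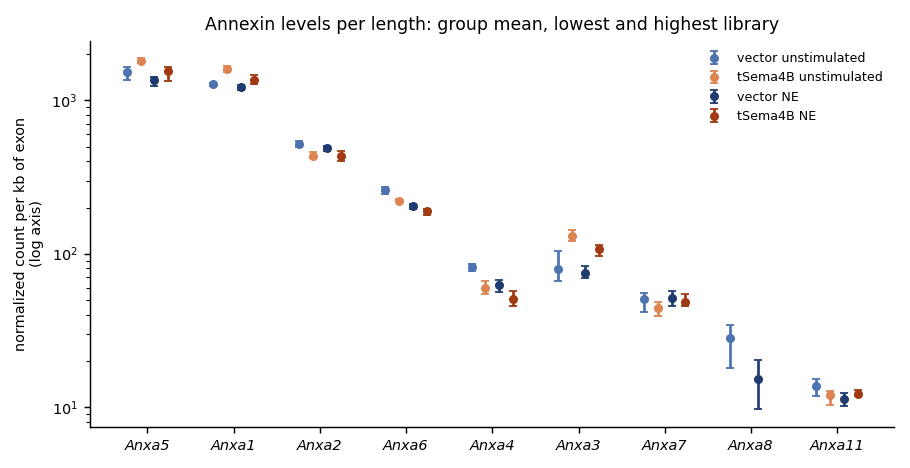
Annexin levels per length, as normalized counts per kilobase of merged exons on a log axis, in the 4 groups. Dots are group means and bars run from the lowest to the highest of 3 libraries. Anxa8 at 0 in both tSema4B groups cannot be drawn on a log axis. Without NE, Anxa3 lies beside Anxa4 in vector cells and above it in tSema4B cells.

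Taken as one sum, annexin reads were a small part of these transcriptomes. The 9 members added up to 10254 ± 461 normalized counts in unstimulated vector cells, 11183 ± 65.7 in unstimulated tSema4B cells, 9335 ± 269 in vector cells after NE and 9855 ± 730 in tSema4B cells after NE. This was between 0.284% and 0.371% of all counts of a library. Between libraries of a group, Anxa1, Anxa2 and Anxa6 varied least, with coefficients of variation of at most 7.59%, 6.99% and 5.91%, and Anxa8 varied most in the vector groups, at 32.0% to 35.0%.

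**Figure D2:**
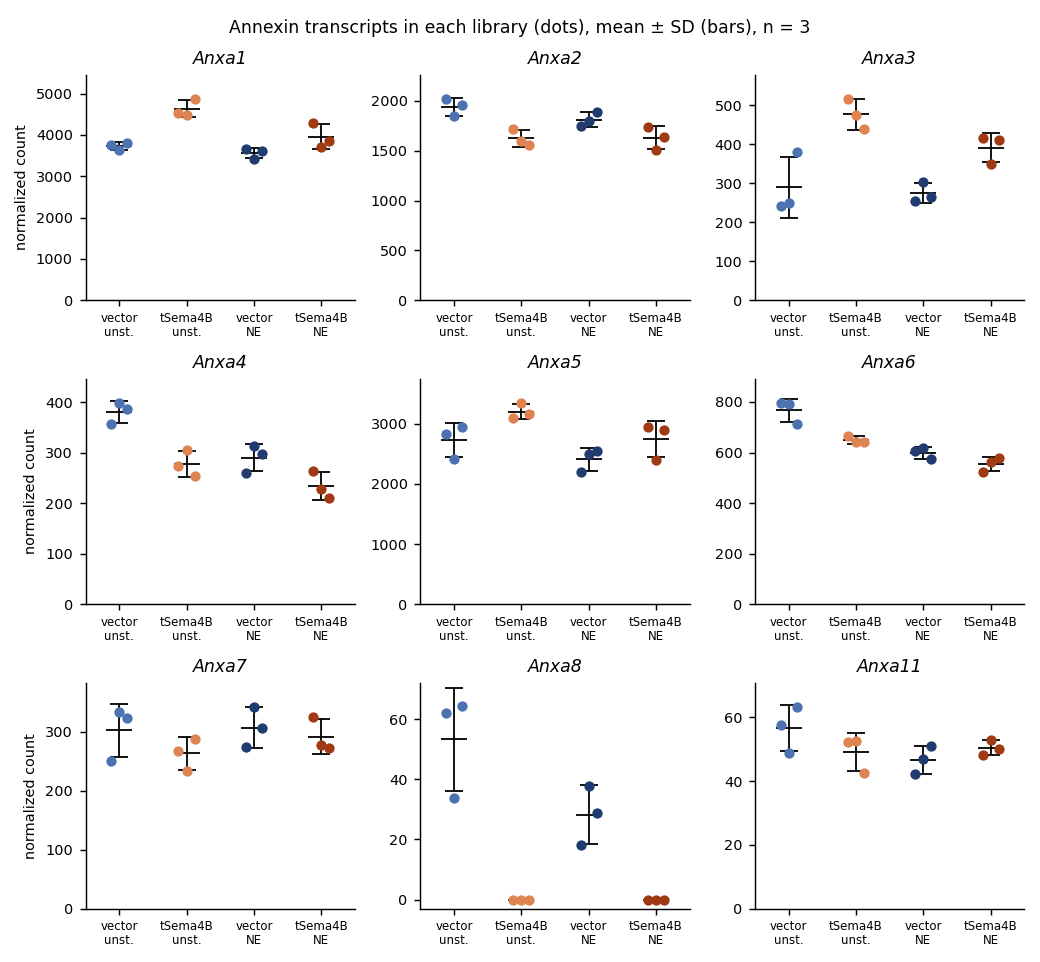
Normalized counts of the 9 annexin transcripts in each of the 12 libraries (dots), with the mean and SD of each group of 3 (bars). Every vertical axis includes 0 and has its own scale. Anxa8 is at 0 in the 6 tSema4B libraries, Anxa3 is higher in every tSema4B library than in any vector library of the same condition, and the NE libraries of Anxa6 lie below the unstimulated ones in both lines.

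Anxa8, a poorly understood member best known from epithelia and from promyelocytic leukaemia, was the member without reads in one line. Its gene (ENSMUSG00000021950.15) lies on the plus strand of chromosome 14 from 34085981 to 34100571 and has 12 merged exons. The window around its RefSeq start site (GRCm38.p6, 250 bases before to 50 after, chr14:34085729-34086028, plus strand) is printed because this start site belongs to the gene that was read in one line alone. The windows of Anxa1 (chr19:20390622-20390921, minus strand) and Anxa2 (chr9:69453433-69453732, plus strand) are set beside it as those of abundant members that differed between the lines in opposite directions, with their matches to the motifs TATAAA and, in the Anxa2 window alone, to the motif GGGCGG and to the AP-1 element in capitals.
Anxa8: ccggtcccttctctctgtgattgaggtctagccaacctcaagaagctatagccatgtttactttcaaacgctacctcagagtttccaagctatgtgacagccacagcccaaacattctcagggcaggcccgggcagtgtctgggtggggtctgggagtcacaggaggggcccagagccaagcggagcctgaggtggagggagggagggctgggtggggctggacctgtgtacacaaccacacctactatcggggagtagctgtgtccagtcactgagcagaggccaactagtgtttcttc
Anxa1: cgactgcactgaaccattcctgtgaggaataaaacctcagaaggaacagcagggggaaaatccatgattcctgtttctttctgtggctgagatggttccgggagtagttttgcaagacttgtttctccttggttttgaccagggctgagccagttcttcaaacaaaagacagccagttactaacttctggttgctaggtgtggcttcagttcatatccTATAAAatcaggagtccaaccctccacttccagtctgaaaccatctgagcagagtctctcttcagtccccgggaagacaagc
Anxa2: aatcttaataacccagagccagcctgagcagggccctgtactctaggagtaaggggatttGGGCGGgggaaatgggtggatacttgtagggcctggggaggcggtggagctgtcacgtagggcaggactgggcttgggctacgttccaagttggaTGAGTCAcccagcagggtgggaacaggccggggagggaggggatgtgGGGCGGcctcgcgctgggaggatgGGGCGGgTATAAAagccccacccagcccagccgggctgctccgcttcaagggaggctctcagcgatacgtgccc

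A start site window was found in the RefSeq table for 7 of the 9 members, not for Anxa3 and Anxa6. Both strands were searched for 8 motifs. Of all 32851 windows of 300 bases, 13.6% held TATAAA, the core element that the general transcription machinery can bind. The element CCAAT was found in 37.4% of the windows. The GC box, spelled GGGCGG here, was found in 35.7%. The full cAMP response element TGACGTCA was present in 1.79% and its shorter form, TGACG, which overlaps it, in 20.8% of windows. For the AP-1 element the letters searched were TGANTCA, present in 7.81%. The site of orphan nuclear receptors, AAAGGTCA, was in 1.51% of windows. Most common was the E-box with the letters CANNTG, in 72.3%. The Anxa8 window held none of these letters, at a GC content of 57.3% (median of all windows 52.7%). Anxa1 had TATAAA beginning 32 bases before the start site and an E-box beginning at base 10 after it. In the Anxa2 window there were 3 GC boxes, 1 AP-1 element and TATAAA beginning 17 bases before the start site. Such matches describe the letters of these windows and say nothing of factor binding.

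In unstimulated vector cells Anxa8 stood at 61.9, 33.6 and 64.3 normalized counts, from 57, 40 and 59 reads. After NE the vector libraries held 18.1, 37.9 and 28.8, from 27, 64 and 44 reads. All 6 tSema4B libraries were at 0. Thus the lines did not overlap in either condition, while the vector libraries with and without NE did. Against a floor of 3 reads per library, Anxa8 was at least 13-fold lower in tSema4B than in vector without stimulation and at least 8.47-fold lower after NE. At the vector level of the same condition, the depth of the tSema4B libraries would have given 34.4 to 44.7 reads without NE and 21.4 to 29.9 reads after it, counting error only. When every library was thinned to 2000780 reads, the vector libraries kept 11 to 43 reads of Anxa8 and the tSema4B libraries 0. Within vector cells the mean of Anxa8 was 53.3 ± 17.0 without and 28.3 ± 9.91 with NE (n = 3 each). This log2 fold change of -0.89 had an SE of 0.641 and did not pass the test (limma, adjusted p = 0.434).

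Looks at absence across the genome and at neighbours were chosen after these values were seen. Anxa8 was the single gene with no read in the 6 tSema4B libraries and at least 10 reads in every vector library, and at a minimum of 5 reads Pck1 and Sim1 joined it. No gene was absent from the 6 vector libraries and present in this way in tSema4B. The tSema4B libraries were shallower than the vector libraries of the same condition, so this rule is met more easily by absence from tSema4B. The nearest tested gene before Anxa8 on chromosome 14, Gdf10 (growth differentiation factor 10), 148 kb away, had means of 70.9 in vector and 3.14 in tSema4B without NE, and of 33.9 and 0.947 after NE. The look took the 5 nearest tested genes on each side, out to Timm23, 1884 kb before Anxa8, and Wapl, 573 kb after it. The other 9 of these had log2 differences between tSema4B and vector from -0.85 to 0.69 over both conditions. Cell types known for Anxa8 were checked through their markers. In the mesothelial list, 5 of 7 genes had any read and Upk3b and Upk1b had none, and its sum was 12.0 to 21.7 in unstimulated vector cells, 0 to 3.09 in unstimulated tSema4B cells, 19.0 to 34.9 in vector cells after NE and 4.73 to 9.65 in tSema4B cells after NE. Most of it was Krt19, a keratin, at a mean of 17.2 in unstimulated vector and 1.03 in unstimulated tSema4B cells, and of 22.5 and 5.42 after NE. This sum moved with Anxa8 between the lines. Within vector cells the mean of Krt19 was higher after NE and that of Anxa8 lower, and neither passed (limma, adjusted p = 0.775 and 0.434). The part of this sum in the result was not tested. The epithelial sum was at most 4.64 in any library, with Krt5 and Cldn4 at 0 throughout.

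Genes were also ranked by the likeness of their pattern to that of Anxa8. With Anxa8 at 0 in tSema4B, such a ranking picks genes that are lower in tSema4B, so that shared trait is no result. Ranked by Pearson correlation of log2 values over all 12 libraries, the leading 5 tested genes were Adipoq (adiponectin, r = 0.988), Tspo (an outer mitochondrial membrane protein, r = 0.986), Acat1 (a mitochondrial thiolase, r = 0.984), Uqcrc2 (a subunit of respiratory complex III, r = 0.983) and Ech1 (a fatty acid oxidation enzyme, r = 0.980). The libraries fall into 2 sets by line and the points share that split, so these values rank likeness and carry no p. Within the 6 vector libraries the same correlations were 0.62, 0.49, 0.63, 0.73 and 0.49. Adipoq had a mean of 2458 ± 297 in unstimulated vector and 436 ± 35.3 in unstimulated tSema4B cells, and 2443 ± 364 and 498 ± 48.8 after NE. Unlike Anxa8, none of the 5 genes was without reads in tSema4B.

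**Figure D3:**
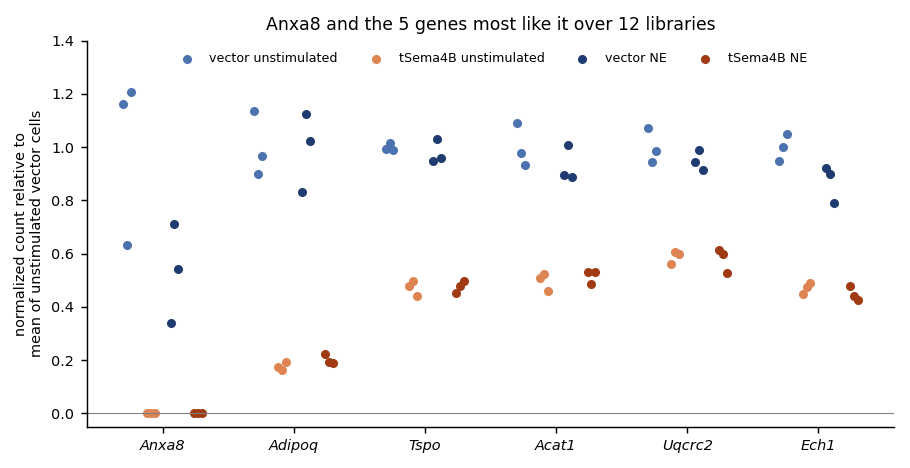
Anxa8 and the 5 genes most like it over the 12 libraries, each as normalized count divided by its own mean in unstimulated vector cells (dots are libraries). Anxa8 is at 0 in tSema4B, whereas the other genes keep part of their vector level there, and Anxa8 is the one most spread among the vector libraries.

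Anxa1 and Anxa2, both abundant and both with known roles outside the cell, differed between the lines in opposite directions. Anxa1 (ENSMUSG00000024659.15, chromosome 19 from 20373428 to 20390944, minus strand) is induced by glucocorticoids, dampens inflammation and pairs with S100a11. Without a stimulus it stood at 3764, 3636 and 3802 in vector cells and at 4543, 4491 and 4878 in tSema4B cells, then at 3650, 3428 and 3621 in vector cells and 4293, 3715 and 3861 in tSema4B cells after NE. Every tSema4B library was above every vector library of the same condition, by a log2 difference of 0.31 (SE 0.0679) without NE and 0.15 (SE 0.0679) after it, although the second became -0.01 under quantile normalization.

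In tSema4B cells Anxa1 fell after NE by 14.8%, a log2 fold change of -0.23 (SE 0.0679) that passed the test (limma, adjusted p = 0.0451, lower in 3 of 3 libraries). This call did not survive most single omissions, since the adjusted p was 0.0792, 0.0530 and 0.147 without unstimulated replicates 1, 2 and 3, and 0.168 and 0.120 without NE replicates 2 and 3. It was also lost with edgeR (adjusted p = 0.0691). In vector cells the groups with and without NE overlapped (log2 fold change -0.07, SE 0.0679, adjusted p = 0.616), and the difference between the 2 responses, -0.16 (SE 0.0960), did not pass (adjusted p = 0.595).

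Among the partners of Anxa1, S100a11 had log2 fold changes after NE of 0.23 in vector cells (limma, adjusted p = 0.457) and -0.13 in tSema4B cells (adjusted p = 0.739). All 5 formyl peptide receptor genes listed (Fpr1, Fpr2, Fpr3, Fpr-rs3 and Fpr-rs4), a family that includes receptors for Anxa1, had no read in any library. Of 5 genes of cytosolic phospholipase A2, an enzyme that Anxa1 inhibits, Pla2g4a alone was tested, and its adjusted p after NE was 0.334 in vector and 0.992 in tSema4B cells.

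Anxa2 (ENSMUSG00000032231.14, chromosome 9 from 69453620 to 69491795, plus strand) joins S100a10 in a complex that bundles membranes and, at the cell surface, gathers plasminogen and its activator. Its unstimulated libraries held 2022, 1845 and 1958 in vector and 1722, 1598 and 1559 in tSema4B cells. After NE they held 1750, 1797 and 1891 in vector and 1738, 1511 and 1642 in tSema4B cells. The tSema4B libraries were below the vector libraries in both conditions, with log2 differences of -0.26 (SE 0.0775) and -0.15 (SE 0.0775). After NE the nearest libraries of the lines stood at 1750 and 1738, and the log2 difference was -0.06 with libraries rescaled to the same total. After NE Anxa2 had log2 fold changes of -0.10 in vector (adjusted p = 0.484) and 0.00 in tSema4B cells (adjusted p = 0.992). The antisense gene Gm16144 overlaps 98 bases of its exons, and no strand setting is given in the sources used here.

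No S100 gene passed an NE test in either line by limma, out of 7 tested of 12 listed. At an unadjusted p under 0.05 there were 0 in vector and 2 in tSema4B cells, beside 23.9% and 19.9% of all genes. edgeR passed 0 in both lines, and DESeq2 passed 0 in vector and 1 in tSema4B cells, namely S100a10. S100a10 had a log2 fold change after NE of -0.09 in vector (adjusted p = 0.699) and -0.35 in tSema4B cells (adjusted p = 0.0607). In the plasminogen list, 1 of 5 tested genes fell in each line and none rose, where 4.78% of all genes fell in vector and 2.58% in tSema4B cells. This was Plat, tissue plasminogen activator, which went from 450 ± 38.1 to 273 ± 51.8 in vector cells (log2 fold change -0.73, SE 0.144, adjusted p = 0.00179) and from 733 ± 98.0 to 384 ± 69.3 in tSema4B cells (-0.94, SE 0.144, adjusted p = 0.000226).

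Anxa5 and Anxa4 bind phosphatidylserine and can order themselves into sheets on the membrane. Anxa5 (ENSMUSG00000027712.13, chromosome 3 from 36448923 to 36475894, minus strand), whose protein is the common probe of apoptotic cells, stood at 2831, 2409 and 2947 in unstimulated vector and 3102, 3347 and 3157 in unstimulated tSema4B cells. After NE the values were 2192, 2495 and 2544 in vector and 2941, 2395 and 2898 in tSema4B cells. The lines were separate without NE, with tSema4B higher by 0.24 on the log2 scale (SE 0.0895), and overlapped after it (0.18, SE 0.0895). NE gave log2 fold changes of -0.18 in vector cells, where the groups overlapped (limma, adjusted p = 0.236), and of -0.23 in tSema4B cells, where they did not (adjusted p = 0.144). Neither passed.

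Anxa4 (ENSMUSG00000029994.17, chromosome 6 from 86736840 to 86793584, minus strand), an annexin of exocytosis and membrane repair, held 357, 399 and 386 in vector and 275, 306 and 255 in tSema4B cells without a stimulus. With NE these were 261, 314 and 297 in vector and 265, 228 and 211 in tSema4B cells. Every tSema4B library was below the vector libraries without NE (-0.45, SE 0.129), and the lines overlapped after NE (-0.31, SE 0.129). Although each NE library of vector cells was below each unstimulated one, the log2 fold change of -0.39 (SE 0.129) narrowly missed the threshold (limma, adjusted p = 0.0514). Its adjusted p was 0.0404 with edgeR and 0.0216 with DESeq2, 0.0823 without a filter on low values, 0.0629 with a replicate block and 0.122 after thinning, and it ran from 0.0657 to 0.215 over the fits that omitted 1 library. In tSema4B cells it was -0.25 (SE 0.129, adjusted p = 0.291), with overlapping groups.

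Of 13 tested genes for the exposure and uptake of phosphatidylserine, the lipid that Anxa5 and Anxa4 bind, 3 fell and none rose after NE in vector cells (4.78% of all genes fell), and 1 fell in tSema4B cells (2.58%). Mertk, a receptor for apoptotic cells, went from 35.8 ± 7.76 to 10.5 ± 3.12 in vector cells (log2 fold change -1.69, SE 0.369, limma adjusted p = 0.00404) and was 27.7 ± 6.95 and 29.0 ± 2.22 in tSema4B cells (adjusted p = 0.928). The difference between these responses, 1.79 (SE 0.521), did not pass (adjusted p = 0.214). Axl, a receptor of the same family, fell by 0.51 on the log2 scale in both lines (adjusted p = 0.000557 and 0.000756). The scramblase family member Plscr4 fell by 0.65 in vector cells (adjusted p = 0.0183), a call lost without unstimulated replicate 1 or 3 or NE replicate 2 or 3 (largest adjusted p 0.0931). In tSema4B cells Plscr4 had -0.54, with every NE library below the unstimulated ones (limma, adjusted p = 0.0688), and DESeq2 passed it there, which makes that count 2.

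Anxa6 was the one member that passed the test after NE in vector cells. The gene (ENSMUSG00000018340.13, chromosome 11 from 54979108 to 55033445, minus strand) encodes the largest annexin core, built from a duplicated set of repeats, and the protein takes part in membrane repair, cholesterol traffic and caveola formation. Unstimulated vector cells held 796, 790 and 714 and unstimulated tSema4B cells 666, 640 and 641. After NE vector cells held 604, 617 and 573 and tSema4B cells 523, 563 and 577. Every NE library was below every unstimulated library of its line.

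In vector cells Anxa6 fell by 21.9% (log2 fold change -0.36, SE 0.0921, limma adjusted p = 0.0133). The call was lost without unstimulated replicate 1 (adjusted p = 0.0662), unstimulated replicate 2 (0.0579) or NE replicate 3 (0.0720), with log2 fold changes from -0.41 to -0.33 over the omissions. In tSema4B cells the log2 fold change was -0.23 (SE 0.0921) and did not pass (adjusted p = 0.158). The 2 responses differed by 0.13 (SE 0.130, adjusted p = 0.794). Between lines, tSema4B was below vector without NE (-0.24, SE 0.0921), and the lines overlapped after it (-0.11, SE 0.0921). The second difference ran from -0.14 to -0.01 over the alternatives.

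Genes of membrane repair and of the scaffolds under the membrane, where Anxa6 and other annexins act, were read from a list of 18, of which 16 were tested. In vector cells 5 fell after NE, where 4.78% of all tested genes fell, and in tSema4B cells 6 fell, where 2.58% did. None rose in either line. Cav1 (caveolin-1, the main coat protein of caveolae) fell by 0.91 in vector cells (SE 0.0796, limma adjusted p = 1.07e-07), from 5617 ± 271 to 2994 ± 238, and by 0.72 in tSema4B cells (SE 0.0796, adjusted p = 3.14e-06), from 4988 ± 429 to 3029 ± 245. Cav2, its partner, fell by 0.51 in vector cells (adjusted p = 0.000145) and by 0.36 in tSema4B cells (adjusted p = 0.00594). Ahnak, a giant scaffold protein recruited by Anxa2 and S100a10, fell by 0.52 (adjusted p = 0.00148) and 0.45 (adjusted p = 0.00764). Ptrf, the older symbol of the caveola coat gene Cavin1, fell by 0.28 and 0.35 (adjusted p = 0.0455 and 0.0219).

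The remaining calls of that list were made in one line each. Sri (sorcin, a calcium-binding protein that binds Anxa7) fell by 0.45 in vector cells (limma, adjusted p = 0.0140) and had -0.35 in tSema4B cells (adjusted p = 0.0755). Ahnak2 fell by 0.96 in tSema4B cells (adjusted p = 0.00390) and had -0.52 in vector cells (adjusted p = 0.0985). Myof (myoferlin, a membrane repair protein) fell by 0.54 in tSema4B cells (adjusted p = 0.0142) and had -0.24 in vector cells (adjusted p = 0.284). Neither these 3 genes nor any other of the list passed the test of the difference between the responses by limma, edgeR or DESeq2, and by limma none of the 16 reached an unadjusted p under 0.05 there. When single libraries were left out, Sri was lost without vector unstimulated replicate 1 or NE replicate 1 (largest adjusted p 0.0760). Myof was lost without tSema4B unstimulated replicate 2 or NE replicate 2 (largest adjusted p 0.0823). In vector cells Ptrf was lost in 5 of 6 omissions (largest adjusted p 0.182) and kept its call only without unstimulated replicate 3. In tSema4B cells Ptrf was lost without unstimulated replicate 1 or NE replicate 2 (largest adjusted p 0.117). Cav1, Cav2, Ahnak, Ahnak2, Plat, Axl and Mertk kept their calls in all 6 omissions of the line they were called in.

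Over all lists of annexin partners, 42 of 65 genes were tested. Of these, 9 passed after NE in vector cells and 8 in tSema4B cells, 6 of them in both, and 0 rose in either line by limma, edgeR or DESeq2. Among all 11998 tested genes, 4.78% fell and 6.82% rose after NE in vector cells, and 2.58% fell and 3.68% rose in tSema4B cells. Such a share was not counted for genes that passed in both lines, so nothing is read from those 6.

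**Figure D4:**
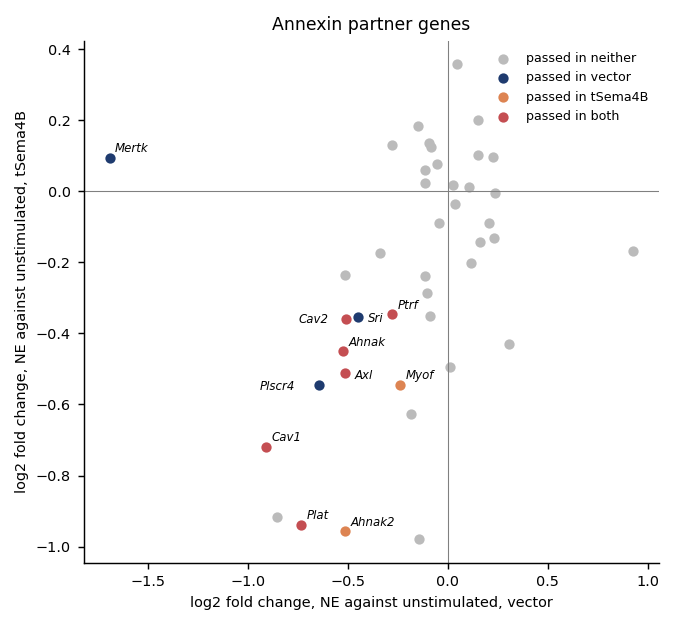
Log2 fold changes of the 42 tested partner genes after NE, in vector cells (horizontal) and in tSema4B cells (vertical). Colours mark the genes that passed at an adjusted p of 0.05 or less in both lines, in one or in neither, and each coloured gene is named. Each coloured gene lies below 0 in a line in which it passed, and Mertk lies away from the others at -1.69 in vector and 0.09 in tSema4B cells.

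Anxa7 and Anxa11 carry long tails rich in glycine, proline and tyrosine. Anxa7 (ENSMUSG00000021814.17, chromosome 14 from 20455260 to 20480133, minus strand), also called synexin, fuses secretory granules. Its values were 251, 334 and 323 in unstimulated vector, 268, 234 and 288 in unstimulated tSema4B, 274, 342 and 306 in NE-treated vector and 326, 277 and 272 in NE-treated tSema4B cells. Groups overlapped in every comparison. The log2 fold changes after NE were 0.03 (SE 0.140, limma adjusted p = 0.936) in vector and 0.15 (SE 0.140, adjusted p = 0.615) in tSema4B cells, and the differences between lines were -0.20 without and -0.07 with NE (SE 0.140).

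Anxa11 (ENSMUSG00000021866.15, chromosome 14 from 25842156 to 25886804, plus strand) tethers RNA granules to lysosomes. It held 57.6, 48.8 and 63.2 in unstimulated vector, 52.4, 52.6 and 42.4 in unstimulated tSema4B, 42.3, 46.8 and 51.1 in NE-treated vector and 48.3, 53.0 and 50.2 in NE-treated tSema4B cells. Its groups overlapped in every comparison too, with log2 fold changes after NE of -0.26 (SE 0.246, limma adjusted p = 0.573) and 0.04 (SE 0.246, adjusted p = 0.953). These values rest on 31 to 79 reads per library. The antisense gene Anxa11os shares 113 of its exon bases and had at most 2 reads.

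Anxa3 (ENSMUSG00000029484.12, chromosome 5 from 96793339 to 96845966, plus strand), an annexin known from neutrophils and from blood vessel growth, had higher values in tSema4B than in vector cells. It stood at 241, 249 and 380 in unstimulated vector and at 517, 475 and 439 in unstimulated tSema4B cells. After NE it stood at 254, 303 and 266 in vector and at 415, 350 and 410 in tSema4B cells. In both conditions every tSema4B library was above every vector library, by 0.75 (SE 0.149) and 0.51 (SE 0.149) on the log2 scale, or 1.68-fold and 1.43-fold. One unstimulated vector library, at 380, was high for its group and stayed below the lowest unstimulated tSema4B library. NE gave log2 fold changes of -0.05 (limma, adjusted p = 0.887) in vector and -0.29 (SE 0.149, adjusted p = 0.295) in tSema4B cells, where every NE library was below the unstimulated ones. Gm42603, a gene on the same strand, shares 112 of its exon bases.

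Across the family, 1 member passed the NE test in each line. In vector cells this was Anxa6, 1 of 9 beside 11.6% of all tested genes, and 2 members, Anxa6 and Anxa4, reached an unadjusted p under 0.05, beside 23.9% of all genes. In tSema4B cells it was Anxa1, 1 of 8 beside 6.25% of all genes, and 3 members reached an unadjusted p under 0.05, beside 19.9%. Log2 fold changes were below 0 for 8 of 9 members in vector and 5 of 8 in tSema4B cells. Among them, the values of Anxa1 (-0.07) and Anxa3 (-0.05) in vector cells changed sign in 1 alternative each. Above 0, Anxa7 in vector cells (0.03) changed sign in 4 alternatives and Anxa11 in tSema4B cells (0.04) in 1. Anxa2 in tSema4B cells, at 0.00, ran from -0.04 to 0.06 over the alternatives. The share of all tested genes below 0 was not counted, so nothing is read from these signs. No member passed as higher. The median log2 fold change was -0.18 in vector and -0.23 in tSema4B cells, beside -0.019 and -0.005 over all tested genes. With both thresholds 0 of 9 members were called in vector and 0 of 8 in tSema4B cells, by limma, edgeR and DESeq2 alike, where 2.63% and 2.07% of all genes were called. Groups with and without NE did not overlap for 2 of 9 members in vector cells (33.3% of all genes) and for 4 of 8 in tSema4B cells (20.7%). A member that did not pass is not shown to be unchanged, since limma passed few genes simulated with a log2 fold change of 0.4 in size.

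The response to NE was not shown to differ between the lines for any annexin. By limma 0 of 8 members passed the interaction test, 0 reached an unadjusted p under 0.05 (10.2% of all genes), and edgeR and DESeq2 also passed 0. Of all tested genes 3, or 0.0250%, passed by limma, so this test had few calls anywhere. Anxa1 had the smallest interaction p of the 8, the value given above. Anxa8, without a read in tSema4B, could not be tested.

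Between the lines, 3 members were higher in every unstimulated tSema4B library than in the vector libraries (Anxa1, Anxa3 and Anxa5) and 4 were lower (Anxa2, Anxa4, Anxa6 and Anxa8), so that 7 of 9 did not overlap, beside 29.4% of all genes. After NE, Anxa1 and Anxa3 remained above and Anxa2 and Anxa8 below, 4 of 9 beside 37.7% of all genes. In each condition 1 member, Anxa8, lay past both thresholds, beside 3.82% of all genes without NE and 5.76% after it. These thresholds include an adjusted p, which is no valid test of Anxa8, because the same values chose the family. Anxa8 entered that count through the vector libraries alone and was the gene by which the family was chosen, so nothing is read from it or from the counts of separate groups.

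**Figure D5:**
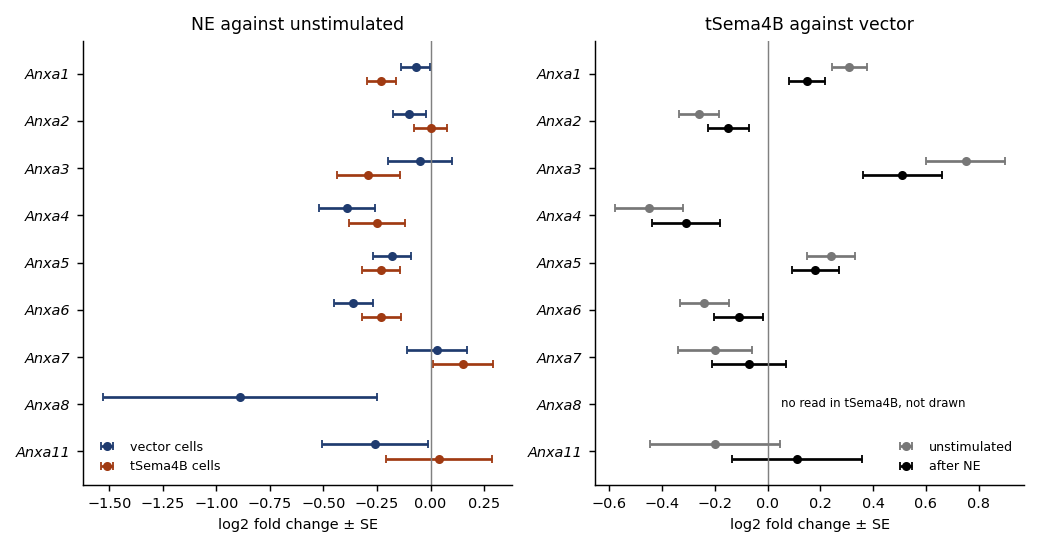
Log2 fold changes of the annexins with their SE, for NE against unstimulated in each line (left) and for tSema4B against vector in each condition (right). Anxa8 is not drawn where tSema4B has no read. Most NE values lie below 0 and within 0.4 of it, with the wide bar of Anxa8 as the exception, while the line differences of Anxa3 and Anxa4 point in opposite directions.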

How the data were processed

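RNAseq of 12 libraries was used, 3 in each of 4 groups assigned from the labels. cDNA was made by SMART-Seq2 and turned into Nextera XT libraries. The authors removed reads of other species, used STAR 2.7.9a to align the rest to mouse (mm10, GRCm38.p4), counted them per gene with HTSeq and normalized them with DESeq2, as their methods and processing notes state. The signal the authors deposited is a normalized count per gene. Strand setting and gene annotation are not given in the sources used here. Dividing each value by that of 1 read gave a whole number, to within 0.01, for 100% of those above 0, so whole reads were recovered for edgeR, DESeq2, thinning and floors. Floors of 3 reads cover counting error only, since PCR copies are not independent molecules. Depth is given with the groups in the results.

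Analyses were run in R 4.3.3. Normalized counts were tested with limma 3.58.1 on log2(value + 1), filter of 10 in 3 libraries, one model of the 4 groups with a variance trend. edgeR 4.0.16 and DESeq2 1.42.0 on whole reads were alternatives, with other pseudocounts, filters and scalings, the 6 libraries compared alone, a replicate block, each library left out, and thinning, which was added after the data were seen. An exact permutation test of 3 against 3 cannot go below p = 0.1. The code was tested on simulated data. Of genes simulated with a log2 fold change of 0.4 in size after NE, limma passed 8.96% in vector and 10.4% in tSema4B cells. At a size of 1 it passed 77.6% and 86.4%. Libraries of a group differed beyond counting noise (chi-square per degree of freedom 3.65 to 6.12 over 12 pairs).

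The members and gene lists were chosen with earlier results of these data known. Genes named are all 9 members, the other annexin genes, S100a10 and S100a11, passing partner genes with the largest changes in each list, and the 5 genes most correlated with Anxa8. Other genes, such as the remaining passing partners and neighbours, were named after their values were seen. Gene positions and exon lengths come from GENCODE M21 (GRCm38), start site windows from RefSeq (GRCm38.p6).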

Additional observations from a re-analysis of the deposited data

How the results depend on the processing

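Of the annexin counts, that after NE in vector cells was the one most often changed. It was 1 as reported and became 2, with Anxa4 joining Anxa6, at a pseudocount of 10, quantile normalization, a filter at 50 normalized counts, rescaling of libraries to the same total, edgeR, DESeq2 and a model of only the 6 libraries compared. With each library left out in turn it ranged from 0 to 1. The count in tSema4B cells was 1 and became 0 without a filter, with libraries rescaled to the same total, with edgeR and with only the 6 libraries compared, and ranged from 0 to 1 over the omissions. The cause of these changes was not tested. The interaction count stayed at 0 in all 22 alternatives, while the number of all genes passing the interaction was 3 by limma, 4 by edgeR and 101 by DESeq2. Calls between the lines are not followed over the alternatives, since that difference chose the family. A filter at 50 normalized counts left Anxa8 untested. The log2 difference of Anxa8 between lines was -6.69 without and -5.79 after NE at a pseudocount of 0.5, -2.62 and -1.90 at a pseudocount of 10, -8.81 and -7.92 by edgeR, and -7.73 and -7.13 by DESeq2, so it is given as a bound. Partner counts ranged from 6 to 9 in vector and from 6 to 11 in tSema4B cells. With the replicate number as a block, the annexin counts after NE were 1 in vector and 1 in tSema4B cells. The interaction count was 0 in that model, and the partner counts were 8 and 9. The numbers do not pair the libraries, since same-numbered deviations correlated between -0.0470 and 0.0282 over 18 pairs. Other scalings moved the median of all genes by at most 0.094. Few reads were behind Anxa8, Anxa9 and Anxa11, and 1 line stood for each construct.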
